A study of Triticum aestivum with 3 samples.

Results

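The miR397 and miR408 families are small RNAs of plants that act on messenger RNAs of copper proteins. They were described here in leaves of wheat (Triticum aestivum) seedlings after 2 days of treatment. The members are the rows of the deposited table named miR397 or miR408, with 1 entry for each distinct sequence. This gave 13 of the 1896 distinct sequences, 6 of miR397 and 7 of miR408. Of these 13, 4 carry wheat names (tae), none carries an Aegilops name (ata), and 9 carry names of other species. The leaves had received DTT+TUDCA, DTT, or neither (control). DTT (dithiothreitol) is a reducing agent that disturbs the folding of proteins with disulfide bonds in the endoplasmic reticulum, and TUDCA (tauroursodeoxycholic acid) is a conjugated bile acid that serves as a chemical chaperone. The sources used here name neither doses nor a cultivar. Each treatment is 1 sample read as 2 RNA pools, both mixed from the biological replicates of that treatment, so the pools are repeat runs and no p-value between treatments was computed. The p3, p5, 3p and 5p endings of a name give the arm of the hairpin precursor, L and R give bases gained or lost at the left and right end, and ss a substitution relative to the registered form. A table of small RNAs holds no protein-coding marker of leaf, so the tissue label was not checked.

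miR397 pairs with the mRNAs of laccases, copper oxidases of the cell wall that act in lignin formation. miR408 pairs with the mRNAs of plantacyanins, small blue copper proteins, and of some laccases. In Arabidopsis both families are switched on when copper is scarce, together with miR398, by the transcription factor SPL7, and the loss of copper proteins is thought to spare copper for plastocyanin in the chloroplast. A hairpin precursor gives a duplex of 2 strands. The guide strand is usually the 5′ arm in miR397 and the 3′ arm in miR408, and the other strand is the passenger.

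The sequences below carry most of the reads of both families and show how the wheat-named forms differ from the others. Capitals mark the seed, bases 2 to 8 from the 5′ end, and the letters are those of the deposited table (T for U).
tae-MIR397-p5: tTGAGTGCagcgttgatgaac
osa-miR397a: tCATTGAGtgcagcgttgatg
ath-miR397b: tCATTGAGtgcatcgttgatg
tae-miR397-5p: tCACCGGCgctgcacacaatg
tae-miR408_L-1: tGCACTGCctcttccctggc
aof-miR408_L+1R-1: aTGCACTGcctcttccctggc
aof-miR408_R+1: tGCACTGCctcttccctggctt
tae-MIR408-p5_1ss20GA: cAGGGATGgagcagagcaaa
aly-miR408-5p_L+1R-1: aCAGGGAAcaagcagagcatg

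The 5′ arm of wheat miR397, tae-MIR397-p5, shares an unbroken run of 18 bases with the rice form osa-miR397a. Bases 1 to 18 of tae-MIR397-p5 are bases 4 to 21 of the rice form, so the seeds differ (TGAGTGC in the wheat-named form, CATTGAG in the rice form). The Arabidopsis form ath-miR397b has the seed of the rice form and differs from it by 1 substitution, G13T, counted from the 5′ end of the rice form. The entry tae-miR397-5p is listed by the table on the 3′ side of the same precursor as tae-MIR397-p5, although its registered name says 5p. Placed against each other by RNAduplex, these 2 sequences formed 17 base pairs. The precursor lies on TGACv1 scaffold 486753 of chromosome arm 6AS, plus strand, 26213 to 26305. For osa-miR397a the table gives scaffold 515496 of 6BS, positions 24134 to 24243 on the minus strand, and ath-miR397b has no wheat position in the table.

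In miR408 all 20 bases of tae-miR408_L-1 are bases 2 to 21 of aof-miR408_L+1R-1 (aof is asparagus) and bases 1 to 20 of aof-miR408_R+1. The 3 sequences thus differ at their ends only. An added A at the 5′ end moves the seed from GCACTGC to TGCACTG. The precursor of tae-miR408_L-1 and its passenger tae-MIR408-p5_1ss20GA lies on scaffold 577351 of 7BL, plus strand, 4680 to 4866, and RNAduplex paired 16 bases of the 2 strands. The table places aof-miR408_R+1 on scaffold 558371 of 7AL, minus strand, 25097 to 25225, and aof-miR408_L+1R-1 on a wheat transcript. It gives the 5′ side for aof-miR408_R+1 and the 3′ side for the other 2 forms. The passenger aly-miR408-5p_L+1R-1 (aly is Arabidopsis lyrata) has no wheat position, and RNAduplex paired 15 of its bases with aof-miR408_L+1R-1. Gene annotation around these positions was not used here, since the reference is of another build.

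The 6 pools differed in makeup, and this touches each result below. The unit is the normalized read of the authors. Most values are whole multiples of a step per pool, which gave 638382 and 1211765 implied reads in DTT+TUDCA pools 1 and 2, 611784 and 752518 under DTT, and 420488 and 330652 under control. Of 150 wheat- and Aegilops-named sequences outside the copper-related families that were above 0 in both DTT+TUDCA pools, 138 were higher in pool 1, with a median log2 difference of 3.70. In the DTT pools 15 of 109 were higher in pool 1 (median log2 difference -1.30), and in the control pools 19 of 103 (median -0.98). Values are therefore also given after scaling to these names (median-of-ratios over 120 of them above 0 in all pools), with divisors of 4.77 and 0.417 under DTT+TUDCA, 0.553 and 1.29 under DTT, and 0.620 and 1.26 under control. After scaling, 58 of the 150 still lay 2-fold apart between the DTT+TUDCA pools (134 before), 35 of 109 between the DTT pools (71 before) and 34 of 103 between the control pools (51 before). The abundant ata-miR396e-5p went the other way, at 107299 and 121577 in the DTT+TUDCA pools as deposited and at 22485 and 291725 after scaling. Sequences with Arabidopsis names (ath, aly) and no wheat position, 167 in all, took 2.88% and 7.41% of the total under DTT+TUDCA, 6.44% and 6.77% under DTT, and 5.42% and 4.64% under control.

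Here wheat miR397 and wheat miR408 mean the sequences with wheat names, though forms with other names were also read in these leaves. In control, ath-miR397b was at 56.5 and 86.5 normalized reads and osa-miR397a at 3.14 and 13.6. Wheat-named miR397 was nearly absent from the control pools and present in all treated pools. Its 5′ arm, tae-MIR397-p5, the side from which the laccase-directed miR397 comes, was at 372 and 22.2 normalized reads with DTT+TUDCA (pools 1 and 2), at 23.0 and 49.7 with DTT, and at 0 (listed) and 5.09 in control. All 4 treated pools lay above both control pools, while the DTT+TUDCA and DTT pools overlapped. The values are worth 349 and 43 reads with DTT+TUDCA, 22 and 69 with DTT, and 0 and 3 in control. The other arm, tae-miR397-5p, was at 169 and 11.9 with DTT+TUDCA, at 8.36 and 25.9 with DTT, and at 0 (listed) and 3.39 in control. As in its partner strand, DTT+TUDCA pool 1 was the highest pool, DTT pool 2 came next and both control pools were lowest.

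After scaling to the wheat and Aegilops names, the pools of each treatment came close together for wheat miR397. tae-MIR397-p5 was then at 77.9 and 53.2 with DTT+TUDCA, at 41.5 and 38.6 with DTT, and at 0 and 4.03 in control. tae-miR397-5p was at 35.5 and 28.5 with DTT+TUDCA, at 15.1 and 20.1 with DTT, and at 0 and 2.69 in control. On this scale the 3 treatments did not overlap for either strand, with DTT+TUDCA highest and control lowest. The share of all wheat and Aegilops names whose scaled pools did not overlap at any fold is not given here. Nothing is therefore read from the lack of overlap between DTT+TUDCA and DTT, whose pools overlapped as deposited. The DTT+TUDCA over DTT ratio of the summed pools was 1.63 for tae-MIR397-p5 and 1.79 for tae-miR397-5p, under 2-fold, against 5.36 and 5.17 as deposited.

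**Figure D1:**
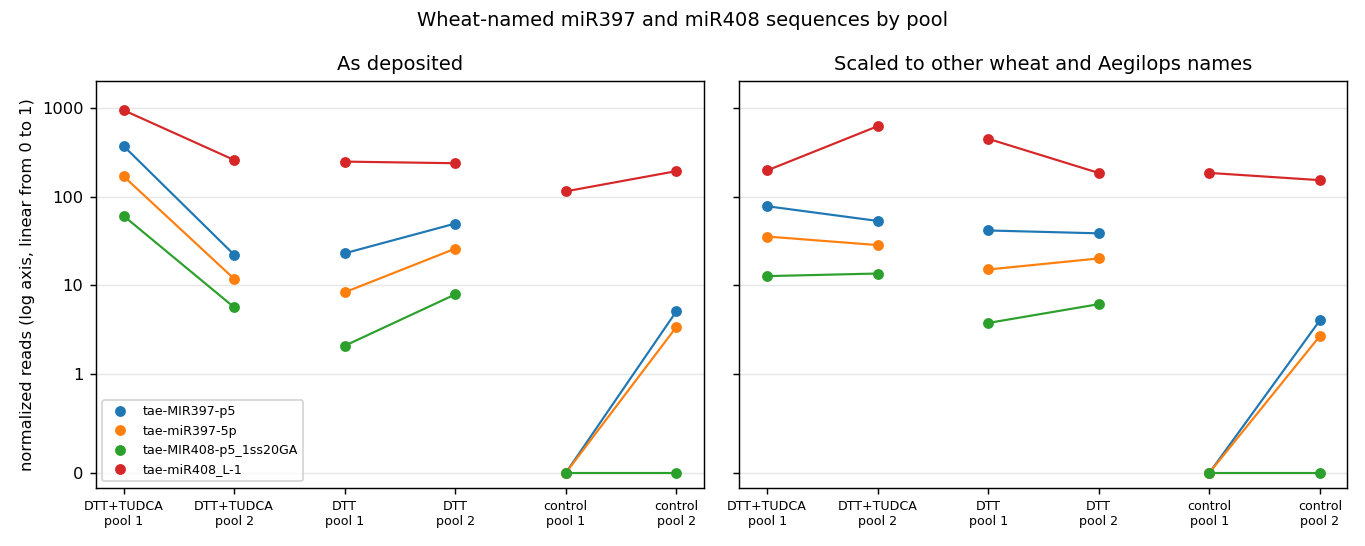
Normalized reads of the 4 wheat-named sequences in each pool, as deposited (left) and scaled to other wheat and Aegilops names (right); the vertical axis is logarithmic above 1 and linear from 0 to 1, and lines join the 2 pools of a treatment. tae-MIR397-p5 sits at 77.9, 53.2, 41.5 and 38.6 in the treated pools after scaling, against 0 and 4.03 in control, and tae-miR408_L-1 is the highest of the 4 in every pool.

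The size of the miR397 difference from control rests on few control reads. tae-MIR397-p5 had 392 implied reads in the summed DTT+TUDCA pools and 3 in the control pools, a ratio of read rates of 55.7 with a 95% exact interval of 18.9 to 271. It had 91 in the DTT pools, a ratio to control of 15.9 (interval 5.26 to 78.3). For tae-miR397-5p, with 182 reads with DTT+TUDCA, 44 with DTT and 2 in control, the ratios were 38.8 (10.6 to 323) and 11.5 (3.0 to 97.9). The intervals cover counting error only, and reads without molecular identifiers are not independent molecules. Values worth 1 read are nearly absent from the table (2 to 7 per pool), so a pool listed at 0 may have held a read. Without DTT+TUDCA pool 1, and with pool 2 counted 2 times in its place, tae-MIR397-p5 was 7.44-fold and tae-miR397-5p 5.63-fold above control (sums plus 1). Both were then below DTT, with log2 ratios of -0.70 and -0.51.

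Wheat miR408 was abundant in all pools and differed less between treatments. The plantacyanin-directed guide form tae-miR408_L-1 was at 939.7 and 258 normalized reads with DTT+TUDCA, at 248 and 238 with DTT, and at 115 and 193 in control. The treated pools all lay above the control pools, and the lower DTT+TUDCA pool lay just above the DTT pools. Its log2 ratio to control was 1.96 with DTT+TUDCA and 0.65 with DTT, and the DTT value is under 2-fold. The share of names without overlap at any fold is not given, so nothing is read from the order of the DTT and control pools. Over the 4 pairs of single pools, the log2 ratio of DTT+TUDCA to control ran from 0.42 to 3.02 and that of DTT to control from 0.29 to 1.11. Without control pool 2 the DTT ratio was 2.11-fold, and without DTT+TUDCA pool 1 the DTT+TUDCA ratio was 1.68-fold over control and 1.06-fold over DTT.

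Scaling did not bring the pools of tae-miR408_L-1 together. It was then at 197 and 619.9 with DTT+TUDCA, at 448 and 185 with DTT, and at 185 and 153 in control. DTT+TUDCA stayed above control in both pools (2.41-fold on the sums), while the DTT pools overlapped with both other treatments. The passenger strand of the same precursor, tae-MIR408-p5_1ss20GA, was at 60.7 and 5.67 normalized reads with DTT+TUDCA, at 2.09 and 7.92 with DTT, and listed at 0 in both control pools. These values are worth 57 and 11 reads with DTT+TUDCA and 2 and 11 with DTT, and no ratio to control is given. After scaling it was at 12.7 and 13.6 with DTT+TUDCA and at 3.78 and 6.15 with DTT, 2.50-fold higher with DTT+TUDCA and without overlap between the pools.

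The forms with names of other species showed another order of pools. The 21-base aof-miR408_L+1R-1 was at 228 and 548 normalized reads with DTT+TUDCA, at 583 and 192 with DTT, and at 303 and 451 in control. Its log2 ratio of the summed pools was 0.04 for DTT+TUDCA to control, 0.04 for DTT to control and 0.00 for DTT+TUDCA to DTT, and the pools of all 3 treatments overlapped. The 22-base aof-miR408_R+1 was at 38.4 and 125 with DTT+TUDCA, at 116 and 54.7 with DTT, and at 39.2 and 66.2 in control. The passenger aly-miR408-5p_L+1R-1 was at 29.8 and 69.6 with DTT+TUDCA, at 73.1 and 23.8 with DTT, and at 48.7 and 62.8 in control. All 3 were higher in DTT+TUDCA pool 2 than in pool 1 and in DTT pool 1 than in pool 2, the reverse of the wheat miR397 strands. After scaling, aof-miR408_L+1R-1 was at 47.8 and 1314 with DTT+TUDCA, at 1054 and 149 with DTT, and at 489 and 357 in control, so that the pools of both treated samples lay further apart than as deposited and those of control did not.

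Of the other miR397 sequences, ath-miR397b was at 32.0 and 50.8 normalized reads with DTT+TUDCA, at 71.0 and 25.2 with DTT, and at 56.5 and 86.5 in control. Its DTT+TUDCA pools lay below both control pools, at a log2 ratio of -0.78, under 2-fold, and its DTT pools overlapped with control. Nothing is read from this order of pools, since the share of entries without overlap at any fold is not given. After scaling ath-miR397b was at 6.70 and 122 with DTT+TUDCA and at 91.1 and 68.5 in control, with overlapping pools and a log2 ratio of -0.31. The rice form osa-miR397a was low throughout, at 10.7 and 0 (listed) with DTT+TUDCA, at 8.36 and 2.88 with DTT, and at 3.14 and 13.6 in control, with overlapping pools. The 18-base atr-MIR397a-p3_2ss15AT18GT (atr is Amborella) was at 20.2 and 4.64 with DTT+TUDCA, at 4.18 and 2.88 with DTT, and at 3.14 and 6.79 in control. It shares no run of more than 5 bases with another miR397 member, and its listed position on scaffold 375226 of 5AL, 35951 to 35976, spans 26 bases, too short for a hairpin. The remaining 3 sequences were below 10 normalized reads in every pool: aof-miR408_L+1R-2, a miR408 sequence that carries 3 names (aly, mdm and stu), and aly-miR397b-3p, which was above 0 in DTT+TUDCA pool 2 only.

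**Figure D2:**
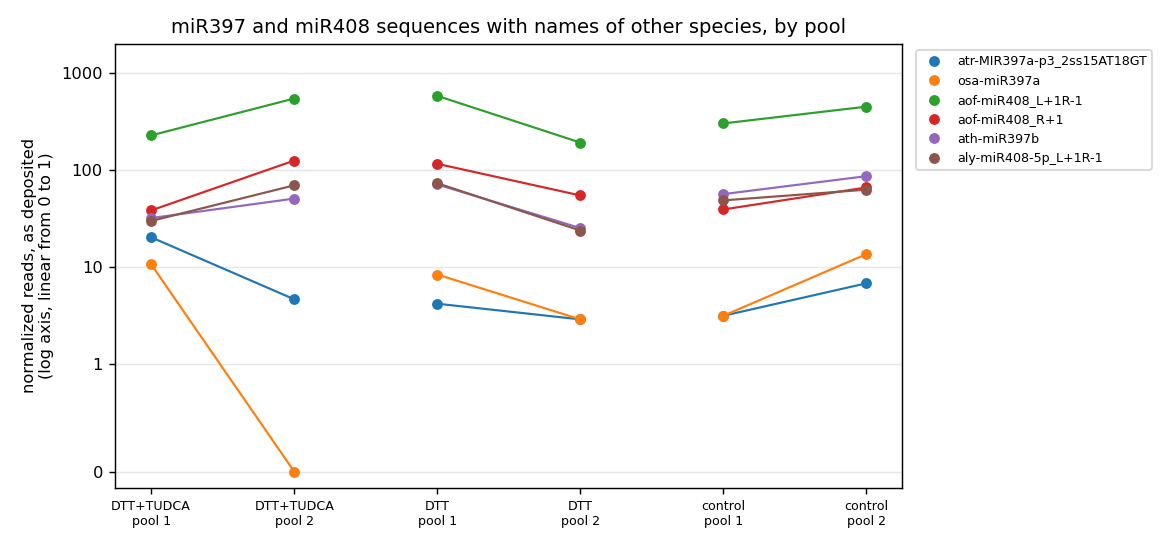
Deposited normalized reads in each pool for the 6 sequences with names of other species and at least 20 normalized reads in all; the vertical axis is logarithmic above 1 and linear from 0 to 1, and lines join the 2 pools of a treatment. aof-miR408_L+1R-1, at 192 to 583, is the highest in every pool, and it, aof-miR408_R+1, ath-miR397b and aly-miR408-5p_L+1R-1 are all lower in DTT pool 2 than in DTT pool 1.

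The arm shares of wheat miR397 differed little across pools, and so did the share of aly-miR408-5p_L+1R-1 beside aof-miR408_L+1R-1. No shared precursor is listed for this pair. The shares of the miR408 forms differed widely. Of the implied reads of both wheat miR397 strands, tae-MIR397-p5 took 68.7% (95% exact interval 64.5 to 72.7) and 65.2% (52.4 to 76.5) with DTT+TUDCA, 73.3% (54.1 to 87.7) and 65.7% (55.8 to 74.7) with DTT, and 60.0% (14.7 to 94.7) of only 5 reads in control pool 2. These intervals all overlap. Of the implied reads of aly-miR408-5p_L+1R-1 and aof-miR408_L+1R-1, the passenger took 11.6% and 11.3% with DTT+TUDCA, 11.1% and 11.0% with DTT, and 13.8% and 12.2% in control, again with overlapping intervals. In wheat miR408 the passenger took 6.07% (4.63 to 7.79) and 2.15% (1.08 to 3.81) with DTT+TUDCA, 0.837% (0.102 to 2.99) and 3.23% (1.62 to 5.70) with DTT, and 0 of 73 and 0 of 114 reads in control. Among the pools with passenger reads, the interval of DTT+TUDCA pool 1 did not overlap with those of DTT+TUDCA pool 2 and DTT pool 1.

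Between the 2 miR408 guide forms that differ by the A at the 5′ end, the share of the 20-base tae-miR408_L-1 was 80.5% (78.0 to 82.8) and 32.1% (29.7 to 34.4) with DTT+TUDCA, 29.8% (26.6 to 33.1) and 55.3% (51.2 to 59.3) with DTT, and 27.4% (22.2 to 33.2) and 30.0% (25.4 to 34.9) in control. DTT+TUDCA pool 1 and DTT pool 2 thus stood apart from the other 4 pools, which overlapped with each other. These 2 pools had the higher median of wheat and Aegilops names within their treatment, as did control pool 2. The part of pool makeup in the shares was not tested.

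**Figure D3:**
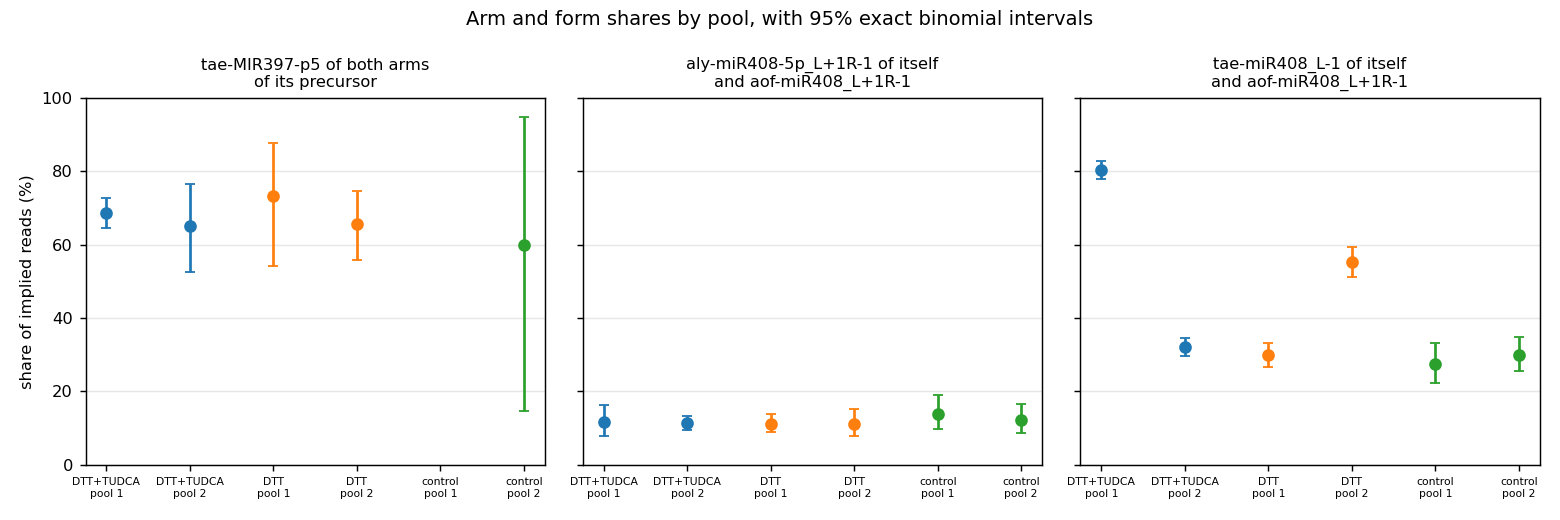
Share of implied reads in each pool, in percent, for the 5′ arm of wheat miR397 (left), the miR408 passenger among aly-miR408-5p_L+1R-1 and aof-miR408_L+1R-1 (middle) and the 20-base form of miR408 against the 21-base form (right); points are pools and bars 95% exact binomial intervals, which cover counting error only. The left and middle shares overlap in all pools with reads, and the right shares run from 27.4% to 80.5%.

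With the reducing agent alone, both strands of wheat miR397 were higher and the other measured members lay within 2-fold of control as deposited. Of the 4 wheat-named members, 3 reached 20 normalized reads over the comparison, and 2 of these, both strands of miR397, were at least 2-fold higher than in control. Their pools did not overlap. Of all wheat- and Aegilops-named entries, 12.1% were 2-fold higher and 6.43% also had pools that did not overlap. After scaling the same 2 members were higher, against 9.42% of those names, with or without the requirement on the pools. Of the 9 other members 5 were measured, with 0 higher and 0 lower, against 17.6% higher and 11.1% lower of the entries with other names. For aof-miR408_R+1 the ratio to control was 1.61 as deposited and 2.17 after scaling, with overlapping pools. Together 2 of 8 measured members were 2-fold apart, against 27% of all entries, and the members' median log2 ratio was 0.35, against 0.08 over all entries. The miR397 strands, 2 arms of 1 precursor, passed the 20-read limit only through the treated pools, so they had to differ. Nothing is read from their count against the shares given here. Without DTT pool 1 the count of members 2-fold apart was 5 of 8 (2 higher, 3 lower). Without control pool 2 that count was 4 of 7, all higher.

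With the joint treatment, all wheat-named members of both families were higher than in control. The 4 wheat-named members all reached 20 normalized reads and were at least 2-fold higher, and so were 75% of the wheat and Aegilops names. Both miR397 strands and tae-MIR408-p5_1ss20GA reached that limit only through the DTT+TUDCA pools, so they had to differ, and nothing is read from their count against the shares given here. With the requirement that pools do not overlap, the 4 members still counted, against 12.5% of those names. After scaling the 4 were also higher, against 15.2%, and their pools did not overlap, against 10.1%. The passenger tae-MIR408-p5_1ss20GA counts here through the pseudocount, since control is listed at 0. Of the 6 measured members with other names, 1 was higher (atr-MIR397a-p3_2ss15AT18GT, 2.37-fold as deposited and 1.43-fold after scaling, with overlapping pools) and 0 lower, against 34.7% higher and 7.15% lower of such entries. It too reached the limit as deposited only through the DTT+TUDCA pools (24.9 against 9.93 in control), so nothing is read from its count. Together 5 of 10 were 2-fold apart, against 47.4% of all entries, and their median log2 ratio was 0.94, against 0.66. For aof-miR408_R+1 the ratio was 1.55 as deposited and 2.65 after scaling, with overlapping pools. Without DTT+TUDCA pool 1 the count was 3 of 7 measured members, namely both miR397 strands and the other-named aof-miR408_R+1. tae-miR408_L-1 was then 1.68-fold higher and tae-MIR408-p5_1ss20GA was under the 20-read limit.

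Set against DTT alone, the deposited values put the wheat-named members higher with TUDCA, and the scaled values mostly did not reach 2-fold. As deposited, the 4 wheat-named members were at least 2-fold higher, against 82.7% of the wheat and Aegilops names, so that their count is near that of the names at large. With pools that do not overlap, 1 of 4 counted (tae-miR408_L-1), against 3.78% of those names. This rests on 258 in the lower DTT+TUDCA pool against 248 in the higher DTT pool. After scaling tae-miR408_L-1 was 1.29-fold higher, with overlapping pools. After scaling 1 of 4 was higher (tae-MIR408-p5_1ss20GA), against 4.86%, and against 2.08% with pools that do not overlap. This entry reached 20 normalized reads only through the DTT+TUDCA pools (scaled sums of 26.3 against 9.93 with DTT). Nothing is read from its count against these shares. Of the 6 measured members with other names 1 was higher (atr-MIR397a-p3_2ss15AT18GT, 3.21-fold as deposited and 1.52-fold after scaling) and 0 lower, against 31.6% and 4.05% of such entries. As deposited it reached the limit only through the DTT+TUDCA pools (24.9 against 7.06 with DTT), so nothing is read from its count. Together 5 of 10 were apart, against 43.7% of all entries, with a median log2 ratio of 0.67, against 0.72. Summed over the wheat names of a family, DTT+TUDCA was 5.34-fold above DTT for miR397 and 2.55-fold for miR408 as deposited, and 1.69-fold and 1.31-fold after scaling. Without DTT+TUDCA pool 1, 0 of 8 measured members were 2-fold apart. This comparison shares the DTT pools and the preceding one the control pools with DTT against control, so the 3 are not independent. Scaling moved the median log2 ratio of all entries from 0.72 to 0.01 in DTT+TUDCA against DTT, from 0.66 to 0.27 in DTT+TUDCA against control, and from 0.08 to 0.16 in DTT against control.

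**Figure D4:**
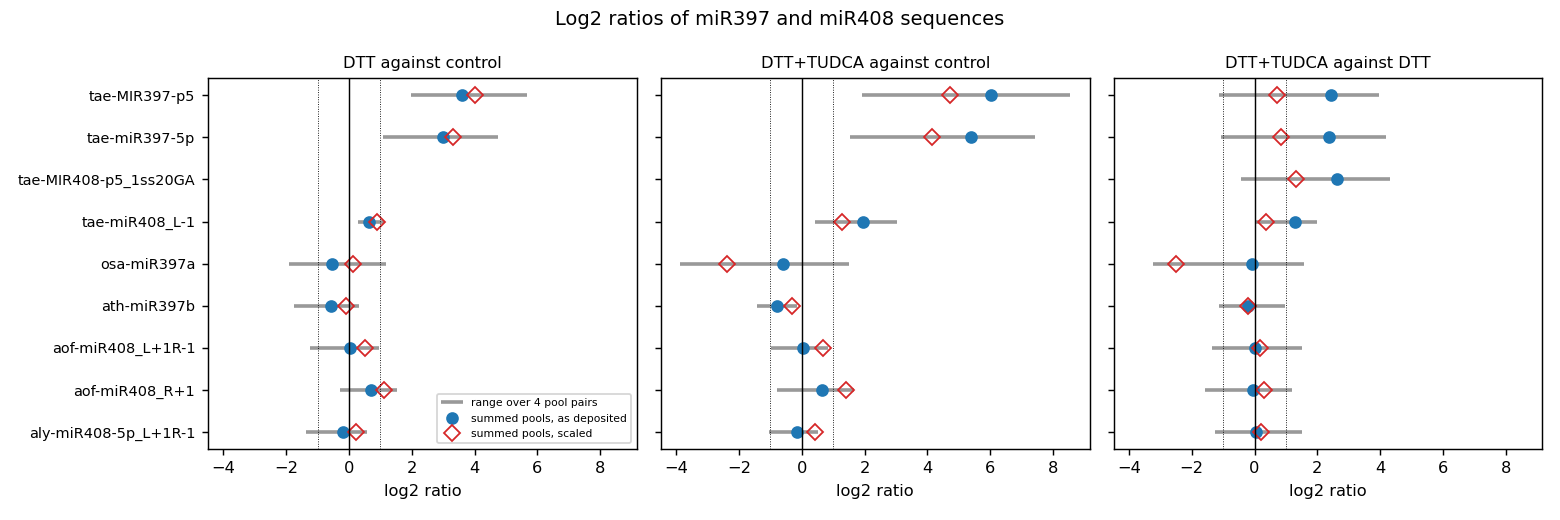
Log2 ratios of 9 sequences in the 3 comparisons (summed pools plus 1), as deposited (filled circles) and scaled to wheat and Aegilops names (open diamonds); grey bars span the 4 pairs of single pools as deposited, dotted lines mark 2-fold, and no ratio is drawn where both control pools are listed at 0. Both miR397 strands lie right of the 2-fold line against control, with the far end of their bars set by the pseudocount, and their bars cross 0 in DTT+TUDCA against DTT; the scaled sums of osa-miR397a with DTT+TUDCA and either other treatment are under 20 reads.

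Among 111 wheat- and Aegilops-named sequences outside both families with a mean of at least 20, those with the profile most like tae-MIR397-p5 were ata-miR167b-3p, tae-miR398, ata-miR398f-5p_L+1R-1, ata-miR528-5p and tae-miR9653b_R+1. Likeness is the root mean square difference of log2(value + 1), centred on each sequence, over the 6 pools. It was 0.89, 0.92, 0.92, 1.05 and 1.15 for these 5, against a median of 2.12. For tae-miR408_L-1 the nearest were tae-miR167c-5p (0.40), ata-miR168-3p (0.47), tae-MIR171a-p5 (0.50), tae-miR159a_R-1 (0.56) and ata-miR166c-3p (0.56), against a median of 0.97. No miR398 or miR528 sequence was among these nearest 5. The profiles share the pools, so a common pool makeup enters each likeness.

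The other copper-response families hold 16 sequences here, 12 of miR398, 3 of miR528, 1 of miR857 and none of miR1444. miR398 acts on copper/zinc superoxide dismutase, and miR528 is found in monocots. With wheat or Aegilops names, 3 of 3 measured were at least 2-fold higher with DTT than in control, both as deposited and after scaling, against 12.1% and 9.42% of all wheat and Aegilops names. After scaling, the most abundant wheat- or Aegilops-named miR398 sequence, ata-miR398f-5p_L+1R-1, was at 287 and 252 with DTT+TUDCA, at 172 and 216 with DTT, and at 20.2 and 6.72 in control. On the same scale ata-miR528-5p was at 196 and 137 with DTT+TUDCA, at 132 and 158 with DTT, and at 27.8 and 9.40 in control. Against control, 6 of 6 measured were higher with DTT+TUDCA as deposited and 3 of 3 after scaling, against 75% and 15.2% of those names. Only 3 of these 6 were measured in DTT against control. The others reached the limit only through the DTT+TUDCA pools, here and against DTT, so nothing is read from the deposited counts of 6. Against DTT, 6 of 6 measured were higher with DTT+TUDCA as deposited and 0 of 4 after scaling, against 82.7% and 4.86%, so that the deposited count is near that of the names at large. Of the 6 measured with other names, 0 were apart with DTT, against 17.6% higher and 11.1% lower of all entries with other names. With DTT+TUDCA 1 was higher than in control and 0 lower, against 34.7% and 7.15% of such entries.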

How the data were processed

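Small RNA libraries of wheat leaves were made with a TruSeq kit and read as 50-base single ends, per the labels' protocols. The values are signal, namely normalized reads in 6 columns (2 pools for each of 3 treatments), deposited by the authors per the file headers. No source used here states the aligner, the filters or the normalization rule. The members, lists and rules were chosen with earlier results of these data known.

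Rows were reduced to distinct sequences, a tae or ata name being kept where names shared one. The 2 pools of a treatment were summed, and 2-fold calls were made on log2(sum + 1) wherever the sum over a comparison reached 20 normalized reads. Where 1 pool was left out, the other pool of its treatment was counted 2 times in its place. The pseudocount of 1 shrinks ratios of low entries. There is 1 sample per treatment, so no test was run. Implied reads are values divided by a step per pool (the most common value divided by the lowest integer that turned 90% or more of the values into whole reads). Within 0.01 reads, 95.1% to 97.3% were whole. Median-of-ratios scaling used tae and ata names above 0 in all pools, leaving out both families and the other copper-response families. Intervals are 95% exact binomial ones on implied reads, and rate ratios condition on their sum. RNAduplex 2.7.2, pandas 2.3.3 and scipy 1.17.1 were used. Every sequence of both families is accounted for, with pool values for wheat names and for others with at least 20 normalized reads. The 2-fold calls and the median-of-ratios scaling were tested on simulated counts with Poisson noise, the scaling with the unchanged entries known. The implied reads, intervals, pairing and likeness were not tested in this way.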

Additional observations from a re-analysis of the deposited data

How the results depend on the processing

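No paired analysis was possible because each treatment is 1 sample and no test was run. As deposited, 259 entries were 2-fold apart for DTT against control, 525 for DTT+TUDCA against control and 480 for DTT+TUDCA against DTT, of which 2, 5 and 5 were members. With no floor these counts were 789, 1040 and 935 (4 members in the first and 8 in the last), and with a floor of 100 they were 89, 227 and 210 (0, 3 and 3 members). At 1.5-fold the first comparison had 464 entries and 4 members, and the second 8 members. Requiring that pools do not overlap left 209 and 103 entries in the second and last comparison, with 2 members in the last. Scaling to wheat and Aegilops names left 319 and 142, with 1 member in the last, and together with non-overlapping pools, an alternative chosen after seeing the data, it left 164, 129 and 28 entries, again with 1 member in the last. Leaving out 1 pool at a time gave 306 to 390 entries and 3 to 5 members for DTT against control, 360 to 760 entries and 3 to 6 members for DTT+TUDCA against control, and 264 to 838 entries and 0 to 7 members for DTT+TUDCA against DTT. For DTT+TUDCA against DTT the log2 ratio ran from -0.70 to 3.34 for tae-MIR397-p5 and from -0.51 to 3.36 for tae-miR397-5p, and it was below 0 only without DTT+TUDCA pool 1. Over the alternatives, 94 ratios of single wheat-named members moved by at most 1 SD of the pool pairs, 12 moved by more and 2 changed sign. Depth limits the control values of wheat miR397, which rest on 0 to 3 reads per pool. Equal totals, median-of-ratios over all entries, pseudocounts of 5 and 0.5, all rows as listed and merging of identical values kept each of these counts within 1.5 times.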

Other observations

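The split between wheat-named and other-named forms can be set beside that of other families. In 20 families both kinds of names averaged at least 20 normalized reads and were above 0 in every pool. The log2 ratio of wheat and Aegilops names to other names was higher in DTT+TUDCA pool 1 than in pool 2 in 16 of the 20, with a median difference of 0.73. miR408 was the 4th highest, at 3.25, after miR398 (5.16), miR168 (3.71) and miR393 (3.31), while miR396 was at 0.08 and miR160 at -2.13. Wheat names took 77.0% and 26.1% of miR408 with DTT+TUDCA, 24.3% and 47.4% with DTT, and 22.3% and 24.7% in control. In miR397, which did not enter because its wheat names are listed at 0 in control pool 1, they took 89.6% and 37.4% with DTT+TUDCA, 27.3% and 70.9% with DTT, and 0% and 7.35% in control. Between the DTT pools the same ratio was higher in pool 2 in 12 of the 20 families, with a median difference of 0.22, and miR408 was at 1.49. Between the control pools it was higher in pool 2 in 16 of the 20, with a median difference of 0.22, and miR408 was at 0.19. These families were chosen by a level limit set after the values were seen.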
